A study of Mus musculus with 29 samples.

Results

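The 10 genes described here encode the MHC class II antigen presentation machinery of the mouse and were measured by RNA-seq in whole colon. They were chosen by symbol, as the rows of the count table whose Ensembl identifiers map to H2-Aa, H2-Ab1, H2-Eb1, Cd74, Ciita, H2-DMa, H2-DMb1, H2-DMb2, H2-Oa and H2-Ob, and all 10 were found among 54532 genes. All 10 passed the filter on low counts, a mean of at least 3 counts per mouse, as did 18616 genes in total. In GRCm38 with GENCODE M21, 8 of them lie within the class II region of chromosome 17, from H2-Oa (chr17:34092340-34095234) through H2-DMa (chr17:34119541-34139101), H2-DMb2 (chr17:34143307-34151555), H2-DMb1 (chr17:34153072-34160230), H2-Ob (chr17:34238903-34254414), H2-Ab1 (chr17:34257689-34269419) and H2-Aa (chr17:34282744-34287823) to H2-Eb1 (chr17:34305867-34316674). Ciita lies at chr16:10480059-10528418 and Cd74 at chr18:60803848-60812652.

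The study sequenced colon RNA of 29 mice in 9 groups, 6 colitis models and 3 groups of untreated controls, 1 library per mouse. Untreated mice labelled Balb/C (WT controls, n = 3) served for DSS, DNBS and IL10. DSS mice (n = 3) were labelled Balb/C and drank 3% dextran sulfate sodium for 5 days, with culling at day 10. DNBS mice (n = 3), also labelled Balb/C, received 3 mg of the hapten DNBS rectally in ethanol. IL10 mice (n = 4), labelled Balb/C, were given an antibody that blocks IL10 signaling, 750 µg against its receptor according to the protocol, and were culled after 4 weeks. Mice labelled C57BL/6 Rag1-/-, a genotype without mature B and T cells, were untreated (Rag1 controls, n = 3), given 50 µg of agonistic anti-CD40 antibody and culled after 7 days (n = 3), or given 500000 sorted naive CD4+ T cells and culled 6 to 8 weeks later (TCT, n = 3). Mice labelled Balb/C Rag2-/- were untreated (Rag2 controls, n = 3), and TRUC mice (n = 4), labelled Balb/C Tbx21-/- x Rag2-/-, were untreated (Tbx21 encodes the transcription factor T-bet). Ages were not given in the labels. The article names C57Bl/6 for the WT and DSS mice and Il10-/- mice for the IL-10 model, and the protocol text calls the T cell recipients Rag2-/- where their genotype label says Rag1-/-. The article also gives an earlier culling of DSS mice, and for T cell transfer an earlier range of culling and a larger dose of cells as an alternative. For mouse colon tissue its methods describe a bead array.

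MHC class II molecules present peptides from the endosomal pathway to CD4+ T cells, and are carried by B cells, dendritic cells and macrophages and, in inflamed gut, by epithelial cells. The alpha and beta chains assemble with the invariant chain Cd74, which is cut down in endosomes until H2-DM exchanges its last fragment for a peptide, a step that H2-O restrains. Transcription of these genes depends on Ciita, a coactivator induced by interferon gamma that docks on RFX, CREB and NF-Y proteins bound at the X and Y boxes of their promoters.

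To show the element the genes share, the X box core ACNGATG and the Y box core GATTGG were searched on both strands in RefSeq promoters of GRCm38.p6, from 250 bases before to 50 bases after the start site. Promoter entries were found for 7 of the 10 genes (H2-Ab1, Cd74 and Ciita had none). Among 32851 promoters the X core was found in 9.85% and the Y core in 16.1%, while an X core followed on the same strand by a Y core after 5 to 30 bases was found in 22, or 0.0670%. Those 22 included H2-DMb1, H2-DMb2, H2-Eb1 and the neighboring H2-Eb2. The stretches of H2-DMb1 (chr17:34153080-34153154), H2-DMb2 (chr17:34145109-34145183) and H2-Eb1 (chr17:34305759-34305832) are shown first because they hold both cores, and all are on the + strand. Those of H2-Aa (chr17:34287847-34287921, - strand), H2-Ob (chr17:34238798-34238872, + strand) and H2-Oa (chr17:34092286-34092360, + strand) follow. They hold the Y core without an exact match to the X core before it. An X box that differs from the string ACNGATG is missed by this search, so the lack of a match does not show that an X box is absent. The promoters of H2-Aa and H2-Oa each hold an X core elsewhere in the 300 bases, outside that arrangement, and that of H2-Ob holds none. Capitals mark the cores.
H2-DMb1: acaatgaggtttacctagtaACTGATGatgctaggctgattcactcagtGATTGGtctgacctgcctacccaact
H2-DMb2: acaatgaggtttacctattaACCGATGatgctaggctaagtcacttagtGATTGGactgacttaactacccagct
H2-Eb1: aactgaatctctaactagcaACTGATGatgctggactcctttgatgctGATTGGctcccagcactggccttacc
H2-Aa: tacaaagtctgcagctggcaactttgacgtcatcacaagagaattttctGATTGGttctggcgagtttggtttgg
H2-Ob: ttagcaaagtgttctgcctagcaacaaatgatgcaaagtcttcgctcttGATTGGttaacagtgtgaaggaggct
H2-Oa: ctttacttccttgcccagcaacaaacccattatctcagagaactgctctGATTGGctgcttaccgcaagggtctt
The stretches of H2-DMb1 and H2-DMb2 were identical at 65 of 75 bases. The Y core ended 56 bases before the start site in H2-DMb1, 85 in H2-DMb2, 54 in H2-Eb1, 43 in H2-Aa, 52 in H2-Ob and 38 in H2-Oa. H2-DMa has 2 promoter entries, of which 1 holds the Y core and neither holds the X core.

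Before the results, the labels were set against class II transcripts that differ between mouse strains. H2-Ea is transcribed from the H2d haplotype of BALB/c mice and not from the H2b haplotype of C57BL/6 mice. The counts of this gene, listed as H2-Ea-ps, ran against several labels, being 0 or 1 in every WT control, DNBS, DSS and IL10 mouse and 0 in every TCT mouse, but 787 to 1011 in the Rag1 controls, 2262 to 2512 in the anti-CD40 mice, 784 to 1462 in the Rag2 controls and 2981 to 3956 in TRUC. The groups are therefore called by their labels throughout, and H2-Ea-ps divides them into 5 groups without its transcripts and 4 with them. Rag1 itself was counted 20 to 33 times in the TCT mice, 0 to 4 in the Rag1 controls, 0 to 2 in the anti-CD40 mice and 0 to 3 in the WT controls. Rag2 was counted 6 to 20 times in the Rag1 controls, 15 to 25 in the Rag2 controls, 48 to 99 in the anti-CD40 mice and 57 to 94 in TRUC, but at most once in any mouse without H2-Ea-ps transcripts, so that it divided the groups in the same way and was counted in the groups labelled Rag2-/-. Tbx21 had 26 to 52 counts in TRUC against 1 to 7 in the Rag2 controls, and Il10 had 61 to 111 counts in IL10 against 1 to 4 in the WT controls. A count over a whole gene can hold reads from outside a deleted part, so these values do not settle the genotypes. DSS, DNBS, IL10, TRUC and anti-CD40 were compared with controls on the same side of this divide, whereas TCT against the Rag1 controls, and both groups of Rag-deficient controls against the WT controls, crossed it. Total counts ran from 10725564 to 14977094 per mouse. The summed level of 9 B cell genes was at most 11.3 CPM in any Rag1 control, Rag2 control, TRUC, anti-CD40 or TCT mouse and at least 37.4 CPM in any other mouse.

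Class II genes rose in 5 of the 6 models. Of the 10 genes, 8 were higher in TRUC than in the Rag2 controls, where 22.4% of all genes tested were higher and 23.4% lower (edgeR quasi-likelihood test, adjusted p under 0.05). In DSS 8 were higher, against 17.7% of all genes higher and 16.3% lower, but without DSS mouse 8 only H2-DMb1 was, and a fit to the DSS and WT control mice alone called 4. In IL10 7 were higher, against 27.2% and 26.1%, and in anti-CD40 7 were higher, against 10.9% and 10.7%. In TCT 8 were higher than in the Rag1 controls, against 16.1% higher and 14% lower. In DNBS none of the 10 passed, where 3.95% of all genes were higher and 2.21% lower. None of the 10 was lower in any model. Across the 10 genes the median log2 fold change was lowest in DNBS, at 0.66, followed by DSS at 1.30, anti-CD40 at 1.91, TRUC at 2.30, IL10 at 3.13 and TCT at 3.89, while that of all genes tested lay between -0.03 and 0.02. Of these only the TCT value crossed the divide in H2-Ea-ps, and the TCT values against the WT controls, given below, were lower. In bulk tissue a change in the number of cells that carry a transcript and a change in the transcript per cell cannot be told apart.

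**Figure D1:**
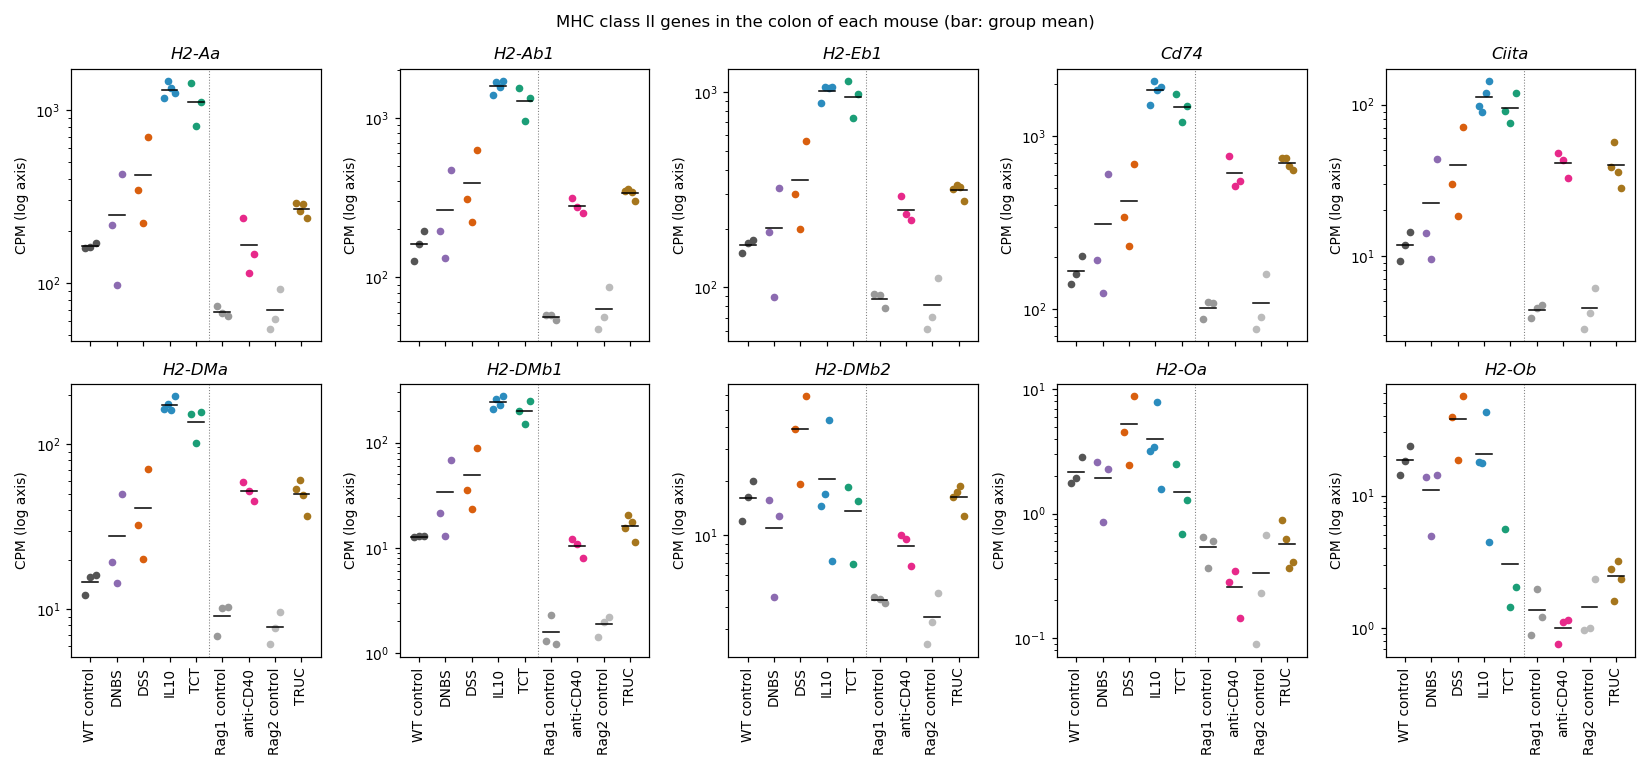
CPM (counts scaled to library size) of each class II gene in each mouse on log axes, with 1 point per mouse and a bar at the group mean; the dotted line separates the 5 groups without H2-Ea-ps transcripts from the 4 with them. IL10 and TCT mice lay highest for H2-Aa, H2-Ab1, H2-Eb1, Cd74, Ciita, H2-DMa and H2-DMb1, while H2-DMb2, H2-Oa and H2-Ob were highest on average in DSS.

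The classical chains gave the highest counts. H2-Ab1, the beta chain of the I-A molecule, was measured at 127, 161 and 196 CPM in the WT controls, where CPM are counts scaled to library size by the TMM method. It reached 1398, 1675, 1570.2 and 1704 CPM in the IL10 mice, so that no IL10 mouse overlapped a control, and the log2 fold change was 3.30 ± 0.36 (SE, adjusted p = 4.02e-07). This corresponds to a 9.82-fold higher level. DSS mice had 312, 223 and 633 CPM, all above the WT controls, with a log2 fold change of 1.27 ± 0.35 (adjusted p = 0.00658). Without DSS mouse 8 it was 0.73 (adjusted p = 0.116), and the DSS calls of H2-Aa, H2-Eb1, Cd74, Ciita and H2-DMa given below were lost in the same way, with an adjusted p of 0.0776 to 0.165. DNBS mice had 194, 132 and 470.4 CPM, of which the lowest lay within the control range, and the difference of 0.72 ± 0.34 on the log2 scale did not pass (adjusted p = 0.199).

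Among the Rag-deficient groups, H2-Ab1 stood at 57.9, 57.9 and 54.4 CPM in the Rag1 controls and at 47.4, 56.4 and 87.5 CPM in the Rag2 controls. TRUC mice had 347, 359, 342 and 300.4 CPM, well clear of the Rag2 controls, with a log2 fold change of 2.40 ± 0.35 (adjusted p = 1.33e-05). Anti-CD40 mice had 315, 274 and 253 CPM, also without overlap, with a log2 fold change of 2.31 ± 0.36 (adjusted p = 0.000133). The TCT mice reached 1536, 956 and 1324 CPM, and differed from the Rag1 controls by 4.49 ± 0.39 on the log2 scale (adjusted p = 7.85e-09). Ordered by group mean, H2-Ab1 was highest in IL10 and TCT, which overlapped. Next came a chain of groups each overlapping its neighbor, DSS, TRUC, anti-CD40, DNBS and WT controls, and last the Rag2 and Rag1 controls, both below every other mouse.

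H2-Aa, the alpha chain that pairs with H2-Ab1, rose in the same 5 models but less than its partner in 4 of them by the fitted values. The log2 fold change of H2-Aa was 1.95 ± 0.38 in TRUC, 1.36 ± 0.38 in DSS, 3.00 ± 0.39 in IL10, 4.03 ± 0.42 in TCT and 1.28 ± 0.38 in anti-CD40. The smallest of these rested on Rag1 controls at 73.6, 66.8 and 64.2 CPM and anti-CD40 mice at 236, 114 and 147 CPM, with no overlap and an adjusted p of 0.0197. Without anti-CD40 mouse 6, the highest, it was 0.93 (adjusted p = 0.12), and without Rag1 control 3 or 4 the adjusted p was 0.0677 or 0.0631. The ratio of H2-Aa to H2-Ab1 counts was 1.20 ± 0.0617 (SD, n = 3) in the Rag1 controls and 0.582 ± 0.168 (n = 3) in the anti-CD40 mice. In the Rag2 controls it was 1.10 ± 0.0442 (n = 3) and in TRUC 0.796 ± 0.0529 (n = 4), and neither pair of groups overlapped. These ratios are given as values, without a test.

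H2-Eb1, the beta chain of the I-E molecule, had the same order of groups apart from the Rag1 controls, which lay above the Rag2 controls and overlapped them. It rose by 1.95 ± 0.32 in TRUC, 1.11 ± 0.33 in DSS, 2.62 ± 0.33 in IL10, 3.43 ± 0.35 in TCT and 1.51 ± 0.33 in anti-CD40, all log2 fold changes past the threshold. Its value in DNBS was 0.29 ± 0.32 (adjusted p = 0.611). In each of the 6 models the log2 fold change of H2-Eb1 was below that of H2-Ab1, and the ratio of their counts was 1.04 ± 0.143 in the WT controls against 0.637 ± 0.0207 in IL10, and 1.27 ± 0.0230 in the Rag2 controls against 0.930 ± 0.0131 in TRUC. IL10 mouse 1 had 877 CPM of H2-Eb1, below the 1048 to 1061 CPM of the other IL10 mice.

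Cd74, the invariant chain that guides class II molecules to endosomes, was the highest of the 10 genes per kilobase of exon in all 9 groups, at 99.9 ± 19.4 CPM per kb (SD, n = 3) in the WT controls and 1099.7 ± 144 (n = 4) in IL10. In the WT controls it had 140.1, 159.5 and 204 CPM, and in the IL10 mice 1518, 2091, 1843 and 1934 CPM. These groups were far apart, at a log2 fold change of 3.46 ± 0.42 (adjusted p = 1.4e-06). TRUC mice had 747, 746, 678 and 637 CPM and the Rag2 controls 77.1, 90.7 and 159.9 CPM, again without overlap, with a log2 fold change of 2.68 ± 0.41 (adjusted p = 2.3e-05). The rise was 2.58 ± 0.42 in anti-CD40, 3.86 ± 0.44 in TCT and 1.33 ± 0.40 in DSS, and the value in DNBS was 0.88 ± 0.40 (adjusted p = 0.174). Cd74 exceeded H2-Ab1 by a count ratio of 1.52 to 2.45 in the 4 groups with H2-Ea-ps transcripts and stood at 0.949 to 1.30 in the 5 groups without them.

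Ciita, the master coactivator of the family, rose in the same 5 models as H2-Aa, H2-Ab1, H2-Eb1, Cd74, H2-DMa and H2-DMb1. Over the 29 mice its correlation with H2-DMb2, H2-Oa and H2-Ob was lower, at 0.64, 0.45 and 0.31, than with those 6 genes, at 0.91 to 0.99, which is a description over mice that share groups. Ciita was measured at 3.27, 4.21 and 6.11 CPM in the Rag2 controls and at 38.9, 56.5, 35.8 and 28.1 CPM in TRUC, a log2 fold change of 3.13 ± 0.47 (adjusted p = 1.94e-05). Anti-CD40 mice had 47.8, 43.3 and 32.8 CPM against 3.89, 4.49 and 4.73 CPM in the Rag1 controls, a log2 fold change of 3.24 ± 0.49 (adjusted p = 9.13e-05). Treated and control mice did not overlap in either comparison. The IL10 mice had 97.7, 89.1, 119.8 and 143 CPM against 9.22, 11.7 and 14.3 CPM in the WT controls, a 9.57-fold higher level (log2 fold change 3.26 ± 0.45, adjusted p = 4.83e-06). TCT mice had 91.3, 75.3 and 120.1 CPM, 4.45 ± 0.50 above the Rag1 controls on the log2 scale. DSS mice had 29.9, 18.3 and 70.7 CPM, a rise of 1.75 ± 0.44 (adjusted p = 0.00384), with mouse 8 more than the other 2 together.

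The DNA-binding partners of Ciita did not follow it. Of the 7 listed subunits of RFX, NF-Y and CREB, at most 2 were higher and at most 2 lower in any model. Over all genes tested, 3.95% to 27.2% were higher and 2.21% to 26.1% lower. The median log2 change of the 7 lay between -0.15 and 0.06 in all 6 models. Rfx5, the large RFX subunit, did not pass in any model, with log2 values between -0.15 and 0.30. Rfxank, another RFX subunit, was lower in all 6 models, by 0.86 ± 0.12 in TRUC, 1.08 ± 0.13 in DSS, 0.52 ± 0.13 in DNBS, 0.48 ± 0.12 in IL10, 0.61 ± 0.13 in TCT and 0.45 ± 0.13 in anti-CD40 on the log2 scale, each past the threshold. Nfyb and Nfyc, subunits of NF-Y, were higher in TRUC by 0.31 ± 0.11 and 0.36 ± 0.12.

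H2-DMa and H2-DMb1 encode the chains of the peptide exchange factor H2-DM. H2-DMa was measured at 6.10, 7.65 and 9.58 CPM in the Rag2 controls and at 53.6, 60.5, 49.3 and 36.5 CPM in TRUC, without overlap (log2 fold change 2.68 ± 0.38, adjusted p = 1.14e-05). Its rise was 2.52 ± 0.39 in anti-CD40, 3.58 ± 0.39 in IL10, 3.91 ± 0.41 in TCT and 1.49 ± 0.37 in DSS. About 8.43% of its 50-base exon windows are shared with Brd2, which overlaps it on the opposite strand.

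H2-DMb1, the beta chain, differed from H2-DMa in its level among the controls. It had 12.6, 12.8 and 12.9 CPM in the WT controls, but 1.30, 2.28 and 1.20 CPM in the Rag1 controls and 1.42, 1.99 and 2.19 CPM in the Rag2 controls. TRUC mice reached 15.5, 20.4, 17.8 and 11.5 CPM and anti-CD40 mice 12.2, 10.8 and 8.03 CPM, about the level of untreated WT controls. IL10 mice had 211, 260.2, 228 and 275 CPM and TCT mice 199, 152 and 252 CPM. The count ratio of H2-DMb1 to H2-DMa, whose products form 1 heterodimer, lay between 0.797 and 1.60 in the 5 groups without H2-Ea-ps transcripts and between 0.118 and 0.361 in the 4 groups with them. These are ratios of read counts against the GRCm38 genome, which is of C57BL/6, and the part of allelic differences in read alignment was not tested.

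Within a side of that divide H2-DMb1 rose in the same models as H2-DMa, with larger fitted values. The ratio of their counts was 0.797 to 1.04 in the WT controls, 1.09 to 1.26 in DSS and 1.29 to 1.48 in IL10. It was 0.228 to 0.260 in the Rag2 controls and 0.289 to 0.361 in TRUC, and neither DSS, IL10 nor TRUC overlapped its controls, whereas anti-CD40 at 0.177 to 0.207 lay within the range of the Rag1 controls. These ratios carry no test. The log2 fold change of H2-DMb1 was 3.11 ± 0.51 in TRUC (adjusted p = 5.44e-05), 2.67 ± 0.55 in anti-CD40 (adjusted p = 0.00157), 4.25 ± 0.47 in IL10 (adjusted p = 4e-07) and 1.94 ± 0.44 in DSS (adjusted p = 0.00162). In DNBS it came nearest to the threshold of the 10 genes, with mice at 21.5, 13.0 and 68.0 CPM, all above the WT controls, and a value of 1.41 ± 0.44 (adjusted p = 0.0543). The value that crossed the divide stood apart from these. Against the Rag1 controls H2-DMb1 was 124-fold higher in TCT (log2 fold change 6.95 ± 0.57), and against the WT controls 15.7-fold (3.97 ± 0.47).

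**Figure D2:**
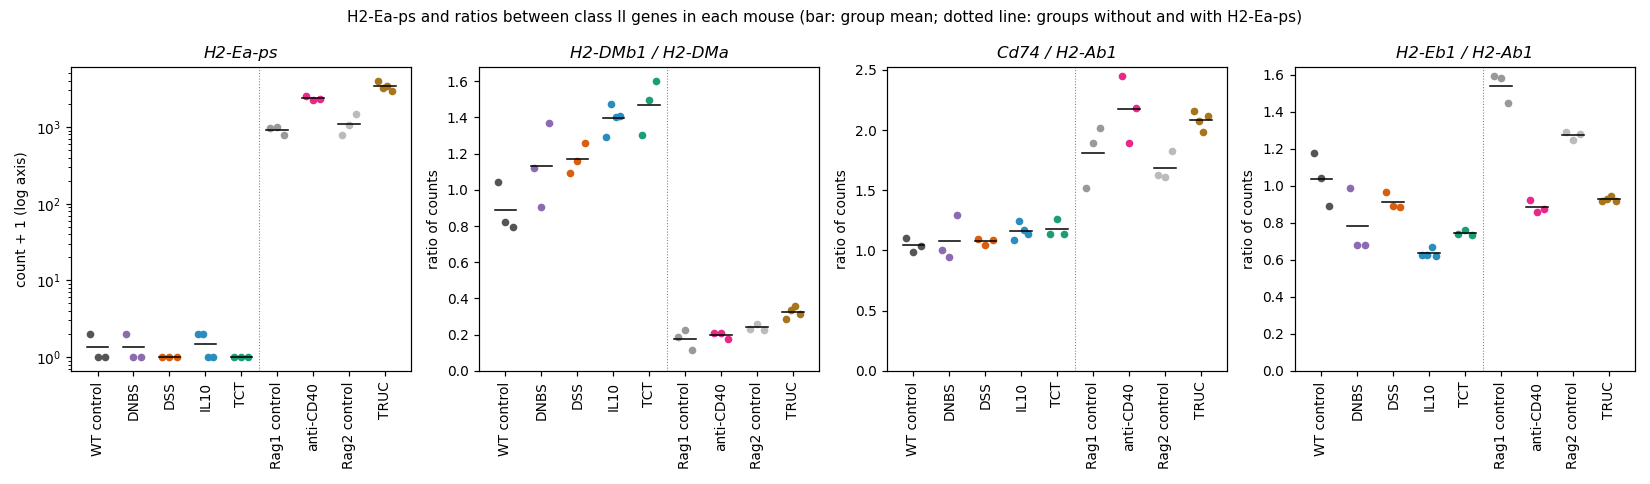
Counts of H2-Ea-ps plus 1 on a log axis, and ratios of counts between class II genes on linear axes, with 1 point per mouse and a bar at the group mean; the dotted line separates the 5 groups without H2-Ea-ps transcripts from the 4 with them. The H2-DMb1 to H2-DMa ratio stayed at 0.797 or above on the left and at 0.361 or below on the right, and the Cd74 to H2-Ab1 ratio at 1.30 or below on the left and 1.52 or above on the right.

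H2-DMb2, another H2-DM beta chain gene whose promoter stretch nearly matches that of H2-DMb1, behaved otherwise. It was measured at 12.0, 16.3 and 20.2 CPM in the WT controls and at 14.6, 17.0, 43.8 and 7.21 CPM in IL10, so the groups overlapped and the log2 value of 0.36 ± 0.45 did not pass (adjusted p = 0.522), where H2-DMb1 rose by 4.25. In the Rag2 controls it had 2.48, 3.29 and 4.75 CPM and in TRUC 16.4, 17.3, 18.8 and 12.8 CPM, without overlap, a rise of 2.21 ± 0.51 on the log2 scale (adjusted p = 0.00127). In anti-CD40 its value was 0.99 ± 0.52 (adjusted p = 0.179). In TCT it was 1.64 ± 0.52 above the Rag1 controls (adjusted p = 0.0193), and in DSS 1.27 ± 0.48 above the WT controls (adjusted p = 0.0434). The TCT call was lost without Rag1 control 3 or 4 or TCT mouse 1 or 5, with an adjusted p of 0.0552 to 0.0738. The DSS call was lost without any 1 of the 3 WT controls or without DSS mouse 5 or 8. H2-DMb2 shares 21.2% of its 50-base exon windows with H2-DMb1, so reads may have been lost or divided between them.

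H2-Oa and H2-Ob encode the chains of H2-O, the inhibitor of H2-DM that is typical of B cells. H2-Ob had 14.3, 18.2 and 23.5 CPM in the WT controls and 18.0, 17.7, 42.6 and 4.49 CPM in IL10. The groups overlapped, with IL10 mouse 3 above and mouse 4 below all controls, and the value was 0.15 ± 0.50 (adjusted p = 0.816). Neither gene passed in any model against its labelled control. The largest values were those of H2-Oa, 1.47 ± 0.66 in TCT (adjusted p = 0.0965) and 1.26 ± 0.53 in DSS (adjusted p = 0.0686). The TCT value set 8 to 29 counts against 5 to 8 in the Rag1 controls and crossed the divide in H2-Ea-ps. H2-Oa shares 15.5% of its 50-base windows with BC051537, which overlaps it on the opposite strand.

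Levels of H2-O differed between the control groups. H2-Ob had 0.891, 1.99 and 1.20 CPM in the Rag1 controls and 0.973, 0.994 and 2.34 CPM in the Rag2 controls, far below the WT controls, by 3.76 ± 0.65 (adjusted p = 0.00028) and by 3.68 ± 0.64 (adjusted p = 0.00034) on the log2 scale. H2-Oa was lower by 2.00 ± 0.64 in the Rag1 controls and by 2.64 ± 0.68 in the Rag2 controls. Of the 9 listed B cell genes all 9 were lower in both comparisons, and their summed level was 100.1 to 169.8 CPM in the WT controls, 1.12 to 1.78 in the Rag1 controls and 1.38 to 2.30 in the Rag2 controls. Within IL10, where the B cell sum ran from 39.5 to 354 CPM, the mouse with the most Ms4a1, a B cell surface gene, at 43.5 CPM was the one with the most H2-Oa, H2-Ob and H2-DMb2, and the mouse with the least Ms4a1, at 3.34 CPM, had the least of all 3. Over the 29 mice the Pearson correlation of log2 CPM between Ms4a1 and H2-Ob was 0.96, and 0.80 after the mean of each group was subtracted, while between Ms4a1 and Cd74 it was 0.18 and 0.33. These correlations are descriptions over mice that share groups and carry no test.

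Ciita was likewise set beside Cxcl9, a chemokine gene induced by interferon gamma. Their correlation over the 29 mice was 0.94, and 0.88 after subtracting group means. DSS mouse 8, the highest of its group for all 10 genes, had 386 CPM of Cxcl9 against 21.9 and 8.54 in the other DSS mice, and 594 counts of Ifng, the interferon gamma gene, against 7 and 2. DNBS mouse 16, the highest of its group for H2-Aa, H2-Ab1, H2-Eb1, Cd74, Ciita, H2-DMa and H2-DMb1, had 85.6 CPM of Cxcl9 against 3.34 and 1.94 in the others. Without DSS mouse 8, where the class II genes called in DSS fell from 8 to 1, the genes called higher among all tested fell from 3299 of 18616 to 1940 of 18591, and in the fit to the DSS and WT control mice alone to 2478 of 19224. Without DNBS mouse 16 the log2 value of Cd74 in DNBS was -0.06, and without DNBS mouse 14 it was 1.26, neither past the threshold.

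**Figure D3:**
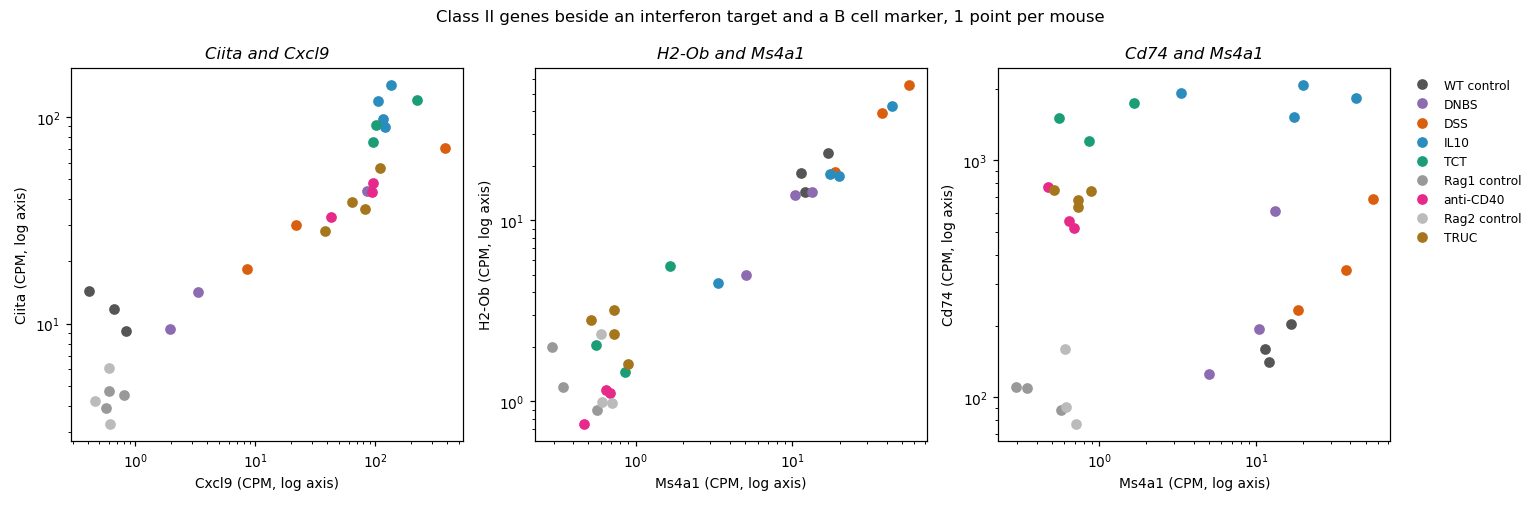
Ciita against Cxcl9, H2-Ob against the B cell gene Ms4a1, and Cd74 against Ms4a1, each in CPM on log axes with 1 point per mouse colored by group. Ciita and Cxcl9 rose together over the mice (r = 0.94), as did H2-Ob and Ms4a1 (r = 0.96), whereas TRUC, anti-CD40 and TCT mice had high Cd74 at little Ms4a1 (r = 0.18 for Cd74).

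The size of the change differed between the 6 models for all 10 genes (edgeR F test of equal changes), where 60.5% of all genes tested also did. The adjusted p was smallest for H2-DMb1, 7.92e-08, and largest for H2-Ob, 0.0388. DSS, DNBS and IL10 share the WT controls, and TCT and anti-CD40 share the Rag1 controls, so that their changes are not independent of each other.

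**Figure D4:**
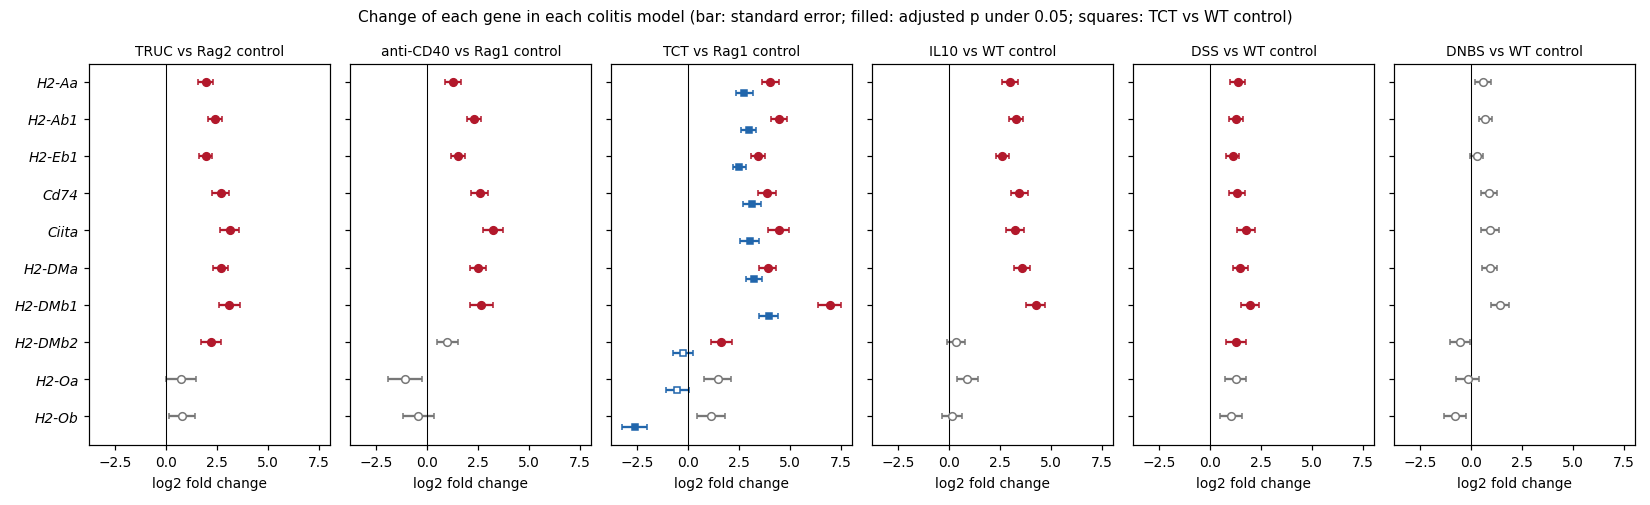
Log2 fold change of each class II gene in each model against its labelled control, with bars for the standard error and filled symbols for an adjusted p under 0.05; blue squares show TCT against the WT controls. Of the 10 genes 8 are filled in TRUC, TCT and DSS, 7 in anti-CD40 and IL10 and none in DNBS, and H2-DMb1 in TCT lies at 6.95 against the Rag1 controls and at 3.97 against the WT controls.

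Because TCT crossed the divide in H2-Ea-ps, it was also set against the WT controls, where 16.9% of all genes were higher and 13.8% lower. By this comparison 7 of the 10 class II genes were higher and 1 lower. H2-Aa was higher by 2.77 ± 0.40, H2-Ab1 by 2.98 ± 0.37, H2-Eb1 by 2.53 ± 0.34, Cd74 by 3.15 ± 0.43, Ciita by 3.02 ± 0.46 and H2-DMa by 3.23 ± 0.39 on the log2 scale. The direction of H2-Ob turned, with a value of -2.62 ± 0.60 (adjusted p = 0.0022), and H2-DMb2 was at -0.24 ± 0.49 (adjusted p = 0.737). H2-Oa did not pass, and its mean CPM in the TCT mice lay below that of the WT controls, with overlap. The B cell genes summed to 5.83 to 11.3 CPM in the TCT mice and to 100.1 to 169.8 CPM in the WT controls. Anti-CD40 set against the Rag2 controls, where 12.4% of all genes were higher and 11.8% lower, again had 7 of the 10 higher, with 2.49 ± 0.42 for Cd74 and 3.18 ± 0.48 for Ciita.

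Without colitis, class II transcripts were lower in the Rag-deficient controls than in the WT controls. Of the 10 genes 6 were lower in the Rag2 controls, where 4.86% of all genes were lower and 3.25% higher, and 6 in the Rag1 controls, where 6.18% were lower and 4.77% higher. In both they were H2-Aa, H2-Ab1, H2-DMb1, H2-DMb2, H2-Oa and H2-Ob. H2-Ab1 was lower by 1.51 ± 0.35 in the Rag1 controls and by 1.34 ± 0.35 in the Rag2 controls on the log2 scale. Cd74 had values of -0.71 ± 0.40 and -0.62 ± 0.40 and did not pass. These counts moved with the mice and the fit, from 3 to 4 in the Rag1 controls and from 2 to 7 in the Rag2 controls when any 1 mouse was left out, and in the Rag1 controls to 10 with DESeq2 or with a fit to the 2 groups alone. The lowest count in the Rag2 controls came without Rag2 control 1, and the count was 3 without Rag2 control 2 or WT control 4. In the Rag1 controls it was 3 without WT control 4 or without any 1 of the Rag1 controls. Loss of lymphocytes and the H2-Ea-ps divide cannot be told apart here. Between the Rag1 and the Rag2 controls none of the 10 genes passed, where 0.0698% of all genes were higher and 0.0537% lower, and the 10 log2 values ran from -0.22 for H2-DMb1 to 0.63 for H2-Oa.

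Other genes of the pathway were examined by lists. Over all genes tested, 22.4% were higher in TRUC, 17.7% in DSS, 3.95% in DNBS, 27.2% in IL10, 16.1% in TCT and 10.9% in anti-CD40. The shares lower were 23.4%, 16.3%, 2.21%, 26.1%, 14% and 10.7% in that order. Of 10 genes of interferon gamma signaling, 8 were higher in TRUC, 8 in DSS with 1 lower, 2 in DNBS, 8 in IL10, 7 in TCT and 6 in anti-CD40. Cxcl9 was higher in all 6, from 5.52 ± 1.39 in DNBS, where mouse 16 lay far above the others, to 7.73 ± 1.43 in DSS. Of 8 enzymes of endosomal processing, 3 were higher in TRUC, 3 in DSS, 1 in DNBS, 5 in IL10 with 1 lower, 6 in TCT and 2 in anti-CD40 with 1 lower. Lgmn, the asparagine endopeptidase, was higher in all 6 models, by 0.67 ± 0.19 in anti-CD40 up to 1.91 ± 0.20 in DSS. Ctss, the protease that trims the invariant chain in antigen-presenting cells, was higher in IL10 by 0.63 ± 0.21 and in TCT by 1.26 ± 0.23. Ifi30, the lysosomal thiol reductase, passed in none, with log2 values between 0.05 and 0.31.

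Genes that act beside class II at the cell surface were less uniform. The list of co-stimulation held Cd80, Cd86 and Icosl, which are co-stimulatory ligands, Cd274 and Pdcd1lg2, which are inhibitory ligands, and the receptor Cd40. Of these 6 genes, 5 were higher in TRUC, DSS and TCT, 4 in IL10, 2 in anti-CD40 and none in DNBS, and none was lower in any model. The shares of all genes are those given for the lists above. Cd40, the target of the agonistic antibody, was higher by 2.55 ± 0.62 in anti-CD40 and by 2.61 ± 0.60 in TRUC. Cd86 was at 0.37 ± 0.48 in anti-CD40, where it did not pass, and rose by 1.21 ± 0.43 in TRUC and 2.58 ± 0.45 in DSS. March1, the ligase that removes class II molecules from the surface, was higher by 1.82 ± 0.36 in TRUC, 2.36 ± 0.36 in DSS, 0.82 ± 0.33 in IL10 and 2.59 ± 0.38 in TCT. It was listed with March8 and Cd83 as a gene of class II turnover. Of these 3 genes, 1 was lower in DSS, and in anti-CD40 1 was lower and none higher. Cd83 had 28 to 45 counts in anti-CD40 against 70 to 107 in the Rag1 controls. Among neighbors in the class II region, H2-Ea-ps was higher by 1.71 ± 0.18 in TRUC and by 1.44 ± 0.19 in anti-CD40. H2-Eb2, whose promoter also holds both cores, did not pass in either, at no more than 0.428 CPM in any Rag-deficient control, TRUC or anti-CD40 mouse.

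Markers of cells that can carry class II changed in the same comparisons. Of all genes tested, 27.2% were higher and 26.1% lower in IL10, 22.4% and 23.4% in TRUC, and 10.9% and 10.7% in anti-CD40. The summed level of the 10 class II genes was 638 to 834 CPM in the WT controls and 5473 to 6854 in IL10. Beside it the 10 macrophage and monocyte genes summed to 379 to 440.5 and 704 to 1019 CPM (6 higher and 1 lower), the 9 dendritic cell genes to 30.2 to 30.6 and 46.5 to 103 CPM (6 higher and 1 lower), and the 10 epithelial genes to 8611 to 10346 and 12143 to 22997 CPM (6 higher and 2 lower). In TRUC the class II sum was 1543 to 1857 CPM against 254 to 478 in the Rag2 controls. The macrophage sum was 444 to 598 against 222 to 297 CPM (9 higher and 1 lower), the dendritic cell sum 48.4 to 64.1 against 16.1 to 34.9 CPM (4 higher), and the epithelial sum 11912 to 12569 against 11093 to 11984 CPM (3 higher and 2 lower). The median log2 change of the epithelial genes in TRUC was -0.03, and that of all genes was -0.03. In anti-CD40 the class II sum was 1262 to 1744 CPM against 329 to 350.0, the macrophage sum 323 to 389 against 186 to 245 CPM (4 higher) and the dendritic cell sum 29.2 to 40.7 against 21.2 to 21.4 CPM (2 higher and 1 lower). The median log2 change of the 9 dendritic cell genes in anti-CD40 was -0.36. Of these genes, Itgax had 243 to 318 counts in anti-CD40 against 115 to 127 in the Rag1 controls. Flt3 and Zbtb46, which define conventional dendritic cells, were detected in every group. Flt3 had 9 to 13 counts in anti-CD40 against 18 to 28 in the Rag1 controls, and Zbtb46 22 to 27 against 29 to 49. At most 1 of these 2 passed, as 1 of the 9 genes was called lower. Cd209a had 0 to 2 against 7 to 17 and Clec9a 4 to 12 against 14 to 18. In the other direction Ccr7 had 18 to 41 against 2 to 9, and Clec10a 23 to 50 against 11 to 20. Xcr1 (8 to 10 against 8 to 15) and Batf3 (12 to 35 against 15 to 20) overlapped. The 6 smooth muscle genes summed to 2627 to 4952 CPM in IL10 against 6484 to 8056 in the WT controls (5 lower), and to 2967 to 4350 CPM in TRUC against 5975 to 6583 in the Rag2 controls (2 lower). IL10 mouse 4, which had the highest epithelial sum, stood apart from the other IL10 mice, with a chi-square per degree of freedom of 68.5 to 70.8 against 15.6 to 24.1 among the others, and without any 1 mouse of this comparison the class II genes called in IL10 stayed at 7. The part of tissue composition in the rise of class II transcripts was not tested.

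In DSS, where 17.7% of all genes were higher and 16.3% lower, the class II sum was 979 to 2935 CPM. The macrophage sum there was 909 to 1751 CPM (8 higher and 1 lower) and the B cell sum 158 to 478 CPM (5 of 9 higher). In TCT, where 16.1% of all genes were higher and 14% lower, the class II sum was 4037 to 6327 CPM and the macrophage sum 824 to 1208 CPM (9 higher and 1 lower). All 8 T cell genes were higher in TCT and in IL10, 5 in TRUC, 6 in DSS and none in anti-CD40 or DNBS. The defining gene Cd3e had at most 2 counts in any Rag1 control, Rag2 control, TRUC or anti-CD40 mouse, and 61 to 119 counts in TCT. All 6 neutrophil genes were higher in every model except anti-CD40, where 4 were.

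Among the 5 genes with the pattern most like Cd74 over the 29 mice, outside the 10 and out of 12116 genes with a mean of at least 5 CPM, were Btnl2 (r = 0.97), B2m (0.96), Gzma (0.95) and Il2rb (0.95). After subtracting group means they stood at 0.68, 0.89, 0.85 and 0.88. The 5 most like Ciita were Il2rb (0.96), Gm4951 (0.96), Gzmb (0.96), H2-Q6 (0.96) and Nlrc5 (0.96), or 0.87, 0.91, 0.86, 0.79 and 0.91 after subtraction. Among the 10 class II genes, the likeness to Cd74 was 0.99 for H2-DMa, 0.98 for Ciita, 0.97 for H2-Eb1, 0.96 for H2-Ab1, 0.92 for H2-Aa, 0.88 for H2-DMb1, 0.55 for H2-DMb2, 0.37 for H2-Oa and 0.21 for H2-Ob. These values describe mice that fall into groups of treatment and strain, and no p was computed.

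Per kilobase of exon, Cd74 and the classical chains H2-Eb1, H2-Ab1 and H2-Aa lay above the other 6 genes in every group, and the order of those 6 differed between groups. In the WT controls H2-DMb2 at 9.25 ± 2.33 CPM per kb (SD, n = 3) and H2-DMb1 at 7.61 ± 0.0742 lay above H2-DMa at 4.24 ± 0.634, and Ciita was lowest of the 10 at 1.23 ± 0.269, below H2-Ob at 3.47 ± 0.859 and H2-Oa at 1.55 ± 0.427. In the Rag1 controls H2-DMa at 2.64 ± 0.554 and H2-DMb2 at 2.51 ± 0.0936 lay above H2-DMb1 at 0.948 ± 0.356. In TRUC, Cd74 at 418 ± 32.3 CPM per kb (SD, n = 4) was followed by H2-Eb1 at 161 ± 13.2, H2-Ab1 at 131 ± 9.96, H2-Aa at 70.6 ± 6.35, H2-DMa at 14.5 ± 2.92, H2-DMb1 at 9.69 ± 2.26, H2-DMb2 at 9.34 ± 1.46, Ciita at 4.18 ± 1.26, H2-Ob at 0.463 ± 0.128 and H2-Oa at 0.405 ± 0.169. H2-DMb1 and H2-DMb2 lay within their spread there, as did H2-Ob and H2-Oa. In IL10, H2-DMb1 at 145 ± 17.5 CPM per kb lay above H2-DMa at 50.6 ± 4.46 and H2-DMb2 at 11.8 ± 9.15. H2-Ob and H2-Oa, at 3.85 ± 2.96 and 2.86 ± 1.92, lay below Ciita at 11.8 ± 2.55 and within each other's spread.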

How the data were processed

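Colon poly(A) RNA of 29 mice was sequenced. The deposited values are unnormalized read counts of each gene in each mouse, which the authors made with Trimmomatic, HISAT2 and HTSeq on GRCm38 according to their processing notes, which give no versions. Whether counting used strand is not given in the sources used here, so reads of genes that overlap on opposite strands cannot be told apart. The 92 spike-in rows, all at a count of 0, were not used. No 2 mice of a group agreed within sampling noise (lowest chi-square per degree of freedom 3.65 over 33 pairs).

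Counts were scaled by TMM and fitted with edgeR 4.0.16 in R 4.3.3 as a quasi-likelihood model of all 9 groups without covariates, on the 18616 genes whose mean over the mice reached 3 counts. Adjusted p values are Benjamini-Hochberg over those genes, standard errors are the log2 fold change over the square root of F, and CPM are on the TMM scale. Whether mice of a group were littermates or cage mates is not stated. The p values set each difference against the spread between these mice, which was estimated for each gene over all 9 groups together. Correlations used log2 CPM with a prior count of 2. The fit was checked on simulated counts. DESeq2 1.42.0 and other scalings, filters, controls and fits without single mice were alternatives.

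The 10 genes, the gene lists and the tests were chosen with earlier results of these data known. The genes named are the 10, genes of the lists and the 5 most like Cd74 and Ciita outside the 10. A few of these genes are not reported here.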

Additional observations from a re-analysis of the deposited data

Results flagged for a closer look

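H2-Eb1 in IL10 mouse 1, at 877 CPM, lay further from the other IL10 mice than Dixon's limit for 4 samples allows. The 10 class II genes were examined in the 2 groups of 4 mice, 20 sets in all, and chance marks about 1 in 20.

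The changes of the class II genes differed between the 6 models by the edgeR F test. The adjusted p was 1.96e-06 for H2-Aa, 5.5e-07 for H2-Ab1, 2.39e-06 for H2-Eb1, 2.35e-05 for Cd74 and 0.000151 for Ciita. It was 5.28e-06 for H2-DMa, 7.92e-08 for H2-DMb1, 0.00942 for H2-DMb2, 0.0227 for H2-Oa and 0.0388 for H2-Ob. The comparison of TCT with the Rag1 controls, which enters this test, crosses the divide in H2-Ea-ps.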

How the results depend on the processing

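With 1 mouse left out at a time, the class II genes called higher stayed at 8 in TRUC and 7 in IL10, and ranged from 7 to 8 in TCT, 6 to 7 in anti-CD40, 1 to 9 in DSS and 0 to 1 in DNBS. Those called lower ranged from 2 to 7 in the Rag2 controls and from 3 to 4 in the Rag1 controls, and those that differed between models from 8 to 10. Fitting the 2 groups alone, or DESeq2, gave 10 lower in the Rag1 controls and 9 in the Rag2 controls, and the former gave 4 higher in DSS. Without a filter on low counts 1 was higher in DNBS. With the WT controls as control 1 was lower in TCT. Values that turned included those of H2-DMb2 (-0.24), H2-Ob (-2.62), H2-Eb2 (-1.54) and Ms4a1 (-3.69). The mean CPM of H2-Oa in TCT also lay above the Rag1 controls and below the WT controls, and H2-Oa passed in neither comparison. Except where the construction shows it, the cause was not tested.

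Same-numbered mice were not shown to be paired, with correlations of their deviations between -0.107 and 0.104. With the replicate number as a block, 10 genes were lower in both the Rag2 and the Rag1 controls. The same mice without the block, a fit added after seeing the data, gave 9 and 10, which for the Rag2 controls is the fit to the 2 groups alone.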
